A study of Mus musculus with 11 samples.

Results

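The cells described here are a small group of macrophages (macs) in sorted Kupffer cell (KC) preparations of the mouse liver that carried large amounts of Saa3. Saa3 (chromosome 7, 46711998 to 46715700, minus strand, GRCm38) encodes an acute-phase protein of the serum amyloid A family, and Clec4f (chromosome 6, 83644542 to 83656187, minus strand) a lectin of KCs. A cell counted as Saa3-high when it held at least 20 Saa3 UMIs, that is, sequenced molecules of the gene counted once each by their molecular identifier. Of 9362 cell barcodes in the WT and Zeb2KO KC libraries, 83 met this rule, and 77 of 8774 remained after cells of extreme depth, gene number or mitochondrial share had been left out. The 77 cells comprised 50 of 4328 cells of the WT library and 27 of 4446 of the Zeb2KO library, from a series of 51712 cells in 11 libraries. They were set against reference cells of the same library, which held no Saa3 UMI and at least 1 Clec4f UMI (3958 in WT and 4022 in Zeb2KO), so that members were chosen by their measured Saa3 UMIs, and Saa3 and Clec4f are described without a test.

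The study removed the transcription factor ZEB2 from tissue-resident macs and profiled single cells from liver, lung, brain, spleen and colon. WT KCs came from Zeb2fl/fl animals, which carry floxed Zeb2 alleles and no Cre. Zeb2KO KCs are labelled Fcgr1-crexZeb2fl/fl, whereas the study's methods name Clec4f-cre for KCs. A further KC library, from Nr1h3fl/fl animals without Cre, served as control for a separate deletion. Animals were C57Bl/6 of both sexes, and the study's general age range was 6 to 8 weeks. All KCs were sorted as live CD45+ CD64+ F4/80+ Clec4F+ cells, each condition is a single library of unstated animal number, and Fcgr1 and Clec4f encode the CD64 and Clec4F of that gate. Because the 3′ counts do not separate floxed from intact Zeb2 transcripts, the level of Zeb2 did not check the genotype.

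Serum amyloid A proteins are released in large amounts during inflammation, mostly by hepatocytes, and Saa3 is the family member made outside the liver parenchyma, with macs among its sources. KCs are the resident macs of the liver sinusoids. They are recognised by Clec4f, Vsig4 and Cd5l, clear particles and senescent erythrocytes from the blood, and recycle iron. Large peritoneal macs live free in the fluid of the body cavity, depend on the transcription factor GATA6, and express Prg4, Alox15, Icam2, Selp and F5.

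The UMI totals of the 2 libraries were 26750299 and 30163898. The 2 liver libraries shared 37 cell barcodes, a single Saa3-high WT barcode among them, and no barcode was Saa3-high in both. The labelled identity was checked against the markers, and the data went against it: as described next, the Saa3-high cells carried the peritoneal mac genes at high levels and the KC genes at low levels, and they are therefore called Saa3-high cells throughout. The sample labels name no peritoneal preparation. The study reports leaving out contaminating, poor-quality and dividing cells before its own analysis, and whether the Saa3-high cells were among those is not stated.

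Saa3-high cells made up 1.16% of WT KCs (50 of 4328, exact 95% binomial interval 0.859% to 1.52%) and 0.607% of Zeb2KO KCs (27 of 4446, 0.401% to 0.882%). The intervals overlap narrowly, cover counting error only, and come from 1 library per genotype, so the shares were not tested against each other. In the Nr1h3fl/fl KC library no Saa3 UMI was found in any of 3869 barcodes, and 0 of 3683 filtered cells allows a share of up to 0.0815% by the limit of 3 counts and 0.1001% by the exact interval. Within a member, Saa3 ranged from 20 to 377 UMIs with a median of 66.5 in WT, and from 25 to 459 with a median of 79 in Zeb2KO. Summed over the members, Saa3 stood at 6907 UMIs per 1000000 of the sum (CPM; 95% Poisson interval 6710 to 7109) in WT and at 7677 CPM (7394 to 7968) in Zeb2KO. The rule raised these levels by its choice of cells. The intervals cover counting error, not the spread between cells, so the genotypes are not compared by them. The 50 WT members held 91.9% of the library's Saa3 UMIs and the 27 Zeb2KO members 87.9%. As the rule chose the cells with the most Saa3 UMIs, these shares follow in part from that choice.

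Some cells lay just below the threshold. In WT, 1 cell held 10 to 14 Saa3 UMIs, 5 held 15 to 19 and 3 held 20 to 24. In Zeb2KO, 5 cells held 10 to 14, 4 held 15 to 19 and none held 20 to 24. A threshold of 10 gave 56 WT and 36 Zeb2KO cells, in place of 50 and 27. The cell filter removed 3 Saa3-high cells from each library, all of them for their mitochondrial share. The members were also deep cells: their total UMIs had a median of 13914.5 in WT (2596 to 22277) and 14239 in Zeb2KO (4063 to 25395), against 5233 and 5868.5 in reference cells. The mitochondrial share was similar in members and reference cells, with medians of 2.53% against 2.98% in WT and 2.65% against 2.97% in Zeb2KO.

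The genes whose upstream sequence is shown were picked because they were high together in these cells and each window holds a match to a searched motif. Of 18 genes looked up, namely Saa3, Clec4f and 16 that rose, 13 had a window in the promoter set searched. That set did not cover every RefSeq start site, and the genes without a window, Gata6 among them, were not searched. Each line gives the 250 bases before the start site (RefSeq, GRCm38.p6) for Saa3 at chr7:46715677-46715926 (minus strand), Selp at chr1:164115014-164115263 (plus strand) and Padi4 at chr4:140774204-140774453 (minus strand), 5′ to 3′, with motif matches in capitals.
Saa3: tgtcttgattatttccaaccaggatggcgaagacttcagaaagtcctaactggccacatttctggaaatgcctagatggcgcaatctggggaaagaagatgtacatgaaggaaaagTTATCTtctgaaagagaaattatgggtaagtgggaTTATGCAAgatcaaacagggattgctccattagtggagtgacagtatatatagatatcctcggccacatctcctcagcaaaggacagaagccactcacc
Selp: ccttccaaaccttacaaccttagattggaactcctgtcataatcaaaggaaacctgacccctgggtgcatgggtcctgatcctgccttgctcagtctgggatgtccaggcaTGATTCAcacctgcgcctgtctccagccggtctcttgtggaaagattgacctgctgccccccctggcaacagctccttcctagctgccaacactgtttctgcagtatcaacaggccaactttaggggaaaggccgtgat
Padi4: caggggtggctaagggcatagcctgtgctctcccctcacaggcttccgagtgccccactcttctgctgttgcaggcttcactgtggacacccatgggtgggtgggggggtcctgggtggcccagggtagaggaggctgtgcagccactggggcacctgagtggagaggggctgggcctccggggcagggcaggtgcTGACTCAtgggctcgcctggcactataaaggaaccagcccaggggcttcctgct
In Saa3 the capitals mark a GATA match (AGATAA, here as its complement) starting 134 bases and a C/EBP match (TTGCNNAA, also on the complement strand) starting 99 bases before the start site. In Selp and Padi4 they mark AP-1 matches (TGANTCA) 139 and 54 bases before it. Over both strands, AGATAA lay in 3 of the 13 genes (Saa3, Serpinb2, Serpinb10) and in 9.99% of 32817 promoter windows, TTGCNNAA in 4 (Saa3, Slpi, Serpinb2, Clec4e) and in 9.57%, and TGANTCA in 4 (Selp, Padi4, Serpinb2, Serpinb10) and in 6.75%. An NF-κB motif, searched in the same way, lay in 0 of 13 and in 0.357% of windows. A gene counted when any of its start sites had a match, whereas the shares are per window. A match describes letters only.

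**Figure D1:**
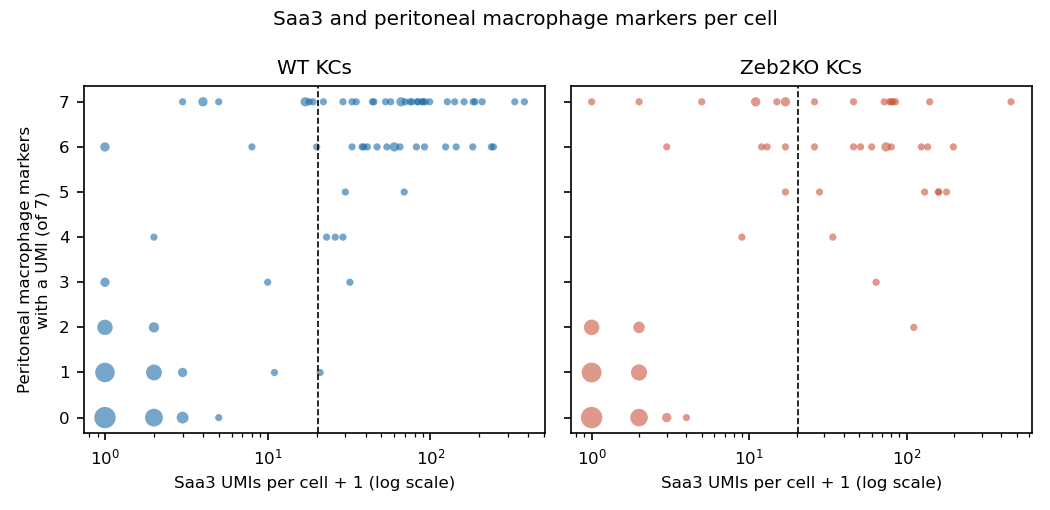
Saa3 UMIs per cell plus 1 (log axis) against the number of 7 peritoneal mac markers (Gata6, Icam2, Prg4, F5, Alox15, Selp, Garnl3) with at least 1 UMI, in the WT (left) and Zeb2KO (right) KC libraries. Dot area grows with the log2 number of cells at a position and the dashed line is the threshold of 20 UMIs. Cells right of the line carry mostly 4 to 7 markers, and cells with no Saa3 mostly 0.

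The peritoneal mac genes were far higher in Saa3-high cells than in reference cells of the same library. Gata6, which encodes the transcription factor that specifies large peritoneal macs, stood at 86.2 CPM in WT and 71.9 CPM in Zeb2KO Saa3-high cells, against 0.174 and 0.419 CPM in reference cells. Prg4, which encodes a lubricating proteoglycan, stood at 3240 and 2583 CPM against 7.16 and 2.59. Alox15, the 12/15-lipoxygenase, stood at 2959 and 2508 CPM against 3.69 and 2.32. In each of these genes both Saa3-high sums lay far above both reference sums. Icam2, an adhesion molecule, stood at 975 and 882 CPM against 32.2 and 39.4. Selp (P-selectin) stood at 303 and 246 CPM against 0.391 and 0.305. F5 (coagulation factor V) stood at 325 and 301 CPM against 0.738 and 0.191. Selp and F5 are neighbours on chromosome 1, 1811 bases apart, so they are not independent positions. Garnl3, a GTPase-activating domain gene, stood at 256 and 213 CPM against 1.74 and 1.49.

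The sums of the 2 libraries were fitted together with edgeR's quasi-likelihood test, with the library as a block and 1 residual degree of freedom. All 8 peritoneal mac genes passed the threshold (adjusted p under 0.05) and rose, where 8.33% of 11648 genes tested rose and 10.7% fell. Their log2 fold changes ran from 2.49 ± 0.51 (SE) for Naip1 to 10.07 ± 0.30 for Alox15. Naip1, an inflammasome sensor, was the weakest member, at 17.8 and 38.7 CPM against 10.2 and 2.17, with an edgeR adjusted p of 1.66e-05. The median log2 ratio was 7.55 in WT, over the 7 members that reached 20 CPM there and so without Naip1. It was 7.0 in Zeb2KO over all 8, beside -0.28 and -0.30 over all genes at or above 20 CPM. The floor applied to the higher class, and apart from Icam2 the members reached it only in Saa3-high cells. This favours high ratios, so the medians are description only. With 2 library pairs and 1 residual degree of freedom, these tests rest largely on a spread estimated across genes. Passing does not show that both libraries moved alike: Pglyrp1 and Ccl3, described below, passed with opposite directions in the 2 libraries. The tests carry no spread between animals.

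**Figure D2:**
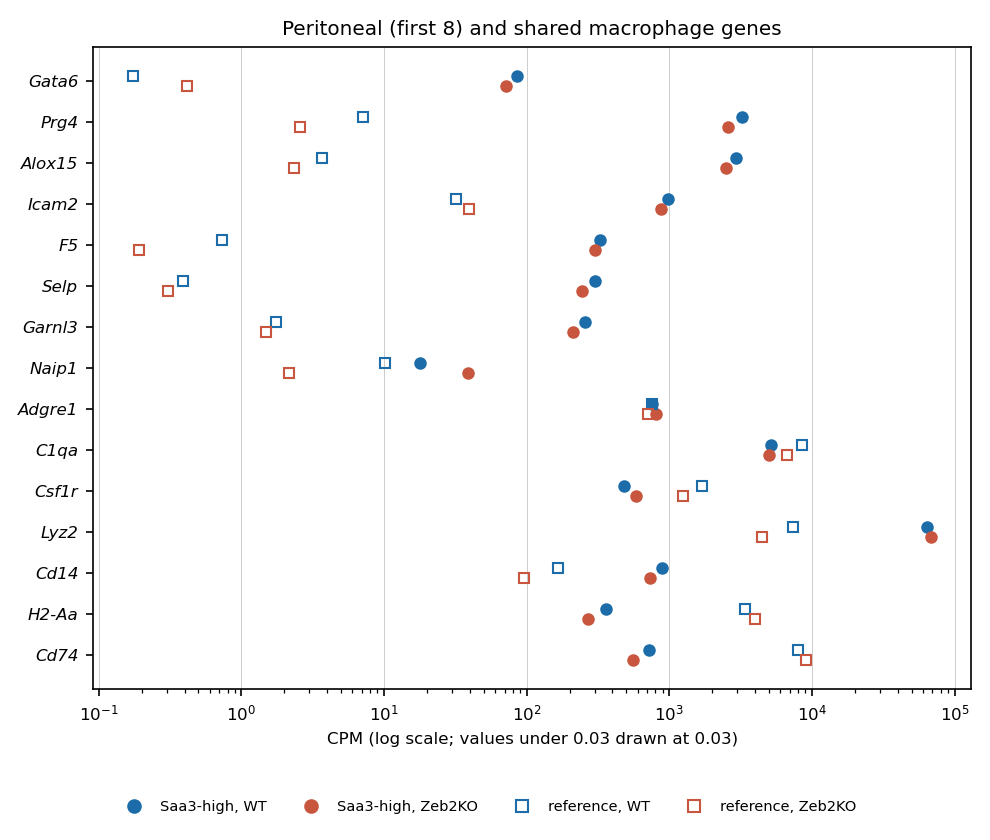
Level in CPM (log axis) of peritoneal mac genes, general mac genes and MHC class II genes, summed over Saa3-high cells (filled) and reference cells (open) of the WT (blue) and Zeb2KO (red) KC libraries. The filled markers lie far above the open ones for Gata6, Prg4, Alox15, Selp and F5, about level for Adgre1, and below them for Csf1r, H2-Aa and Cd74.

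The markers occurred together in single cells. The 7 markers counted were the list without Naip1, which was detected in 10 of 50 WT and 11 of 27 Zeb2KO members. Gata6, detected in 30 and 13, was kept. The set of markers was thus chosen in part on these cells. At least 4 of the 7 markers were detected in 48 of 50 WT and 25 of 27 Zeb2KO Saa3-high cells. All 7 were detected in 27 WT and 9 Zeb2KO members. Among cells without Saa3, 2 of 3991 in WT and 1 of 4163 in Zeb2KO reached 4 markers, and 3231 and 3237 held none. Marker-positive cells were also found just below the Saa3 threshold, as all 5 WT and all 4 Zeb2KO cells with 15 to 19 Saa3 UMIs had at least 4 markers. Counting cells by the markers alone, with Saa3 ignored, gave 61 WT cells (1.41%, interval 1.08% to 1.81%) and 39 Zeb2KO cells (0.877%, 0.625% to 1.20%). Of the 61, 48 were Saa3-high, 11 held 1 to 19 Saa3 UMIs and 2 held none, and of the 39, the numbers were 25, 13 and 1. Summed over these marker-chosen cells, Saa3 stood at 5814 CPM in WT and 5105 CPM in Zeb2KO, the reverse of the order in the Saa3-high cells. In the other 9 libraries, the Nr1h3fl/fl KCs included, no cell held more than 2 of the 7.

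**Figure D3:**
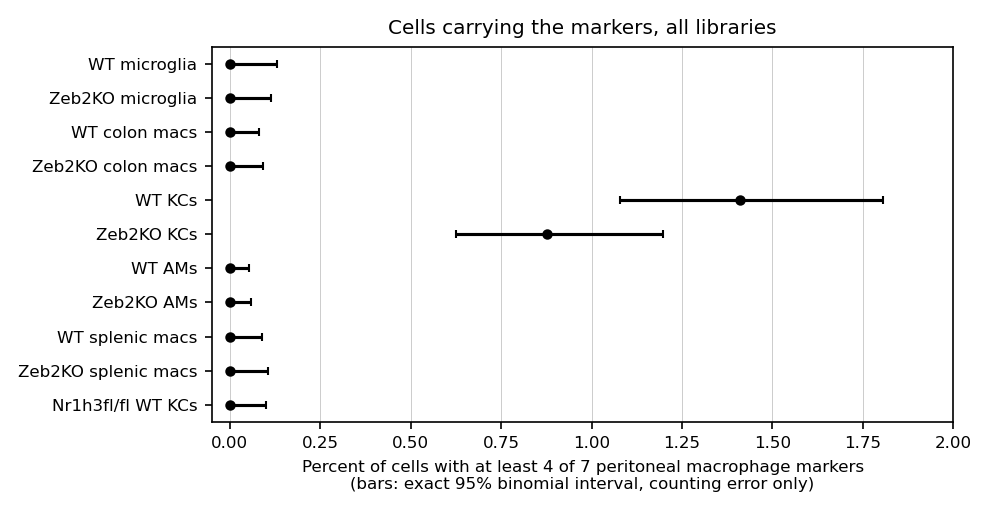
Percent of cells with at least 4 of 7 peritoneal mac markers in each of the 11 libraries, with exact 95% binomial intervals for counting error. The WT KC library stands at 1.41% and the Zeb2KO KC library at 0.877%, and each other library at 0.

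In clusters computed without Saa3 and Clec4f, all 77 Saa3-high cells fell into a single cluster of 117 cells, 69 from WT, 47 from Zeb2KO and 1 from Nr1h3fl/fl. Every cell with 4 or more of the 7 markers lay in it. The genes that led it were Alox15, Prg4, Slpi, Fn1, Saa3, Padi4, Thbs1, Serpinb2, Retnla and Tgfb2. None of the 77 lay in a cluster of endothelial, B, T or other non-mac markers, and such clusters held 10.5% of WT and 15.1% of Zeb2KO cells.

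The general mac genes were present but uneven. Adgre1, which encodes F4/80, stood at 761 and 805 CPM in Saa3-high cells against 755 and 705 in reference cells and did not pass the test (log2 0.32 ± 0.20, edgeR adjusted p 0.311). The C1q chains did not pass it either, with C1qa at 5139 and 5030 CPM against 8477 and 6699. Lyz2, lysozyme, rose from 7367 and 4443 CPM to 64100 and 68740, and Cd14, the lipopolysaccharide co-receptor, from 167 and 96.3 to 892 and 736. Of the 12, 5 fell: Csf1r, Mertk, Cd68, Aif1 and Fcgr1. Fcgr1, the gene of the sorting marker CD64, stood at 41.6 and 88.5 CPM against 332 and 319, and was detected in 17 of 50 WT and 14 of 27 Zeb2KO members.

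The KC genes were low in Saa3-high cells. Of 21 KC genes other than Clec4f, 19 fell, 1 rose and 1 did not pass the test. The median log2 ratio was -3.25 in WT and -2.66 in Zeb2KO. Vsig4, the complement receptor of KCs, fell from 3296 and 1726 CPM to 713 and 418. Cd5l fell from 5227 and 2790 to 1553 and 1377. Nr1h3, which encodes LXRα, a lineage factor of KCs, fell from 394 and 264 CPM to 26.8 and 27.6, and Id3 from 936 and 1798 to 87.7 and 279. Clec1b, Cdh5, Folr2, C6 and Il18bp also fell, with log2 fold changes in the edgeR fit from -2.78 for Folr2 to -3.36 for C6. Reference cells were chosen to hold Clec4f, which goes with these genes; with all Saa3-negative cells as the reference, the medians were -3.25 and -2.64.

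Timd4 was the gene of this list that rose. It encodes the phosphatidylserine receptor Tim4, which is shared by long-lived resident macs of liver and peritoneum. It stood at 609 and 636 CPM in Saa3-high cells, against 545 CPM in WT and 118 CPM in Zeb2KO reference cells, and rose in the fit (log2 1.49 ± 0.21, edgeR adjusted p 2.42e-11). The Saa3-high levels of the 2 libraries were close, and the gap to the reference came mostly from the low Zeb2KO reference. Marco, a scavenger receptor, stood at 514 and 296 CPM against 321 and 427, higher in WT and lower in Zeb2KO, and did not pass the test.

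Clec4f itself, which chose the reference cells, stood at 482 CPM in WT and 326 CPM in Zeb2KO Saa3-high cells, against 6099 and 2081 in reference cells. These are 7.90% and 15.7% of the reference level. A B cell-like cluster (67 WT and 61 Zeb2KO cells) was taken as background, since B cells do not make Clec4f. It stood at 664 CPM in WT and 255 CPM in Zeb2KO, 10.9% and 12.3% of the reference. Another B cell-like cluster (76 WT and 71 Zeb2KO cells) stood at 3420 CPM over the liver libraries and was not used, and whether the KC transcripts in either are free RNA, attached KC material or doublets was not tested. After cells had been thinned to 2000 UMIs, with shallower ones left out (4 WT and 1 Zeb2KO B cells, 139 and 23 reference cells, and no Saa3-high cell), Clec4f was detected in 48.0% of WT Saa3-high cells, 55.6% of B cells and 99.3% of reference cells, and in 29.6%, 40% and 93.3% of those of Zeb2KO. Over all cells, without thinning, the shares were 98.0% and 74.1% in Saa3-high cells, of median 13914.5 and 14239 UMIs, and 70.2% and 44.3% in B cells, of median 2454 and 2560. The order of the classes thus depended on the measure: the thinned share of cells with Clec4f was lower in Saa3-high cells than in B cells, the share without thinning was higher, and the CPM was lower in WT and higher in Zeb2KO. Thinning removes more of the UMIs of deeper cells, so no difference from the background is read from these values. Over the 21 other KC genes, Saa3-high cells held a median of 9.53% of the reference level in WT (4.07% to 160%) and 15.8% in Zeb2KO (6.03% to 538%), and the B cells 8.90% and 11.6%. As percent of the reference, 8 of the 21 stood below the B cells in WT and 6 in Zeb2KO, with Nr1h3, Cdh5 and C6 below in both. Some of the others stood above the B cells, as given next. The members are deeper than the B cells, so whether any KC gene exceeds free RNA was not tested. Timd4 was detected in 70.0% and 77.8% of thinned Saa3-high cells and in 11.1% and 5% of thinned B cells. For Cd5l the shares were 88.0% and 96.3% against 60.3% and 31.7%, and for Marco 38.0% and 22.2% against 4.76% and 8.33%. Fabp7, a fatty acid-binding protein gene, stood at 26.6% and 61.3% of the reference level against 4.68% and 8.12% in B cells, and Vsig4 in WT at 21.6% against 8.90%. The peritoneal genes Gata6, Prg4, F5, Alox15, Selp and Garnl3 had 0 UMIs in the B cells of both libraries.

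**Figure D4:**
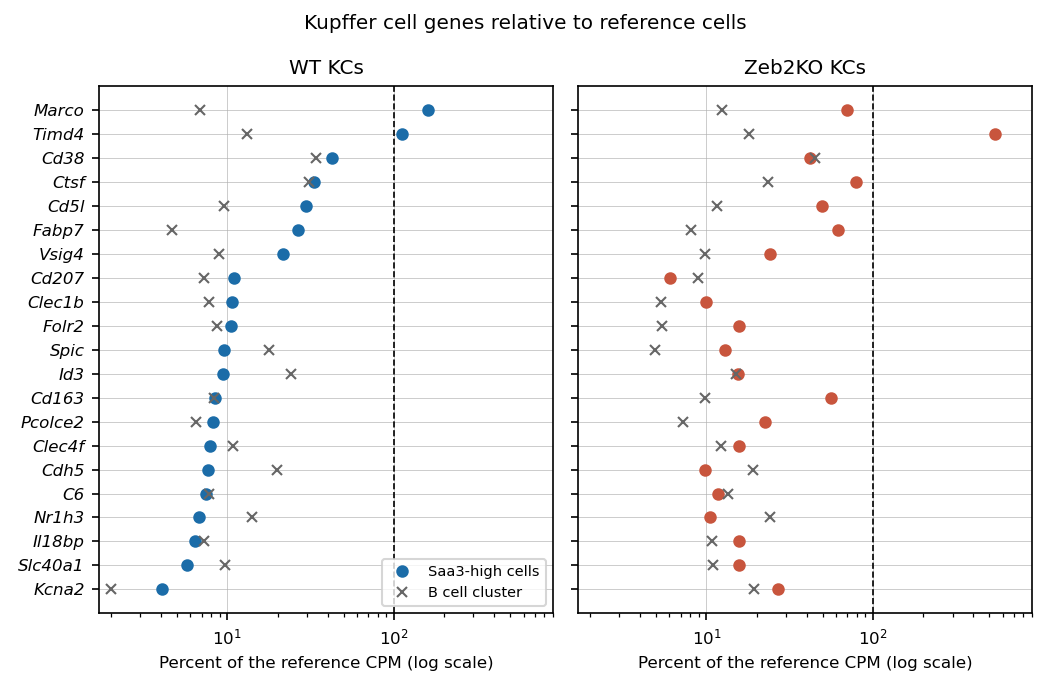
Level of Clec4f and the other KC genes as percent of the reference cells of the same library (log axis), for Saa3-high cells (dots) and for the B cell cluster (crosses), in WT and Zeb2KO KCs. Over the 21 genes other than Clec4f, with Cd55 counted, the medians are 9.53% for Saa3-high and 8.90% for B cells in WT and 15.8% and 11.6% in Zeb2KO, and Timd4, Marco, Cd5l and Fabp7 stand to the right of their crosses in both libraries. A Kcna2 value of 0 in WT B cells is drawn at the left edge, and Cd55, which B cells express, is left out.

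A few members carried most of the Clec4f. It reached 10 or more UMIs in 3 of 50 WT members (14 to 84 UMIs) and 4 of 27 Zeb2KO members (10 to 31). These 7 cells held 177 of 324 Clec4f UMIs of the WT members and 80 of 118 of the Zeb2KO members, and for Cd74, the MHC class II invariant chain, 326 of 488 and 143 of 203. Other KC genes varied in this respect. The 47 remaining WT cells kept 883 of 1045 Cd5l UMIs, 380 of 410 Timd4 UMIs and 359 of 480 Vsig4 UMIs, but 6 of 25 C6 UMIs, 6 of 18 Nr1h3 UMIs and 3 of 17 Cd207 UMIs, while the 3 cells held 48 of 84 Slc40a1 UMIs. In Zeb2KO the 4 cells held 92 of 151 Vsig4 UMIs, and without them Vsig4 stood at 11.4% of the reference level, against 24.2% with them and 9.85% in B cells. All 7 also had at least 4 of the 7 peritoneal markers. In all, 3 WT members and 2 Zeb2KO members had a doublet score in the top 5% of their library, and each of these was among the 7; whether the 7 are droplets with more than 1 cell was not tested. Without them, Clec4f in Saa3-high cells was 3.92% and 6.11% of the reference and the median of the other KC genes 5.37% and 6.82%.

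Across the whole transcriptome 2217 of 11648 genes passed the threshold in either direction (19%). Of the genes tested, 970 were higher (8.33%) and 1247 lower (10.7%) in Saa3-high cells, and the counts of each list are to be read beside these shares. Scaling to library totals alone, without the TMM factors that edgeR uses to match the bulk of the genes, gave 761 higher and 1767 lower. The factors shift every log2 fold change by 0.23 in WT and 0.20 in Zeb2KO. DESeq2 called 669 higher and 483 lower among the same 11648 genes, beside which its list counts are to be read. Within a library, 492 of 5594 genes were at least 2-fold higher in WT (8.8%) and 1075 at least 2-fold lower (19.2%), and 453 (7.92%) and 1245 (21.8%) of 5718 in Zeb2KO. In both libraries at once, 330 of 5244 were higher (6.29%) and 674 lower (12.9%).

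Genes were ranked that passed the threshold, had the same direction in both libraries and reached 50 CPM in the higher class of each. The 12 with the highest fold change were Tgfb2, Padi4, Alox15, Selp, F5, Prg4, Serpinb2, Slpi, Ltbp1, Fn1, Serpinb10 and Clec4e. Such a ranking favours genes that are very low in reference cells. Tgfb2, a TGF-β ligand, stood at 354 and 293 CPM against 0.130 and 0.191, 3 and 5 UMIs in all reference cells (log2 11.09 ± 0.33). Padi4, a protein-arginine deiminase, stood at 495 and 617 CPM against 0.694 and 0.0762. Ltbp1, which binds latent TGF-β in the matrix, stood at 273 and 282 CPM against 0.651 and 0.419. Each was below 1 CPM in both reference sums. Serpinb2, plasminogen activator inhibitor 2, stood at 577 and 398 CPM against 1.17 and 0.533. Serpinb10 stood at 137 and 113 CPM against 0.347 and 0.305. The annotated spans of Serpinb2 and Serpinb10 overlap on chromosome 1, so part of their counts may not be separable. Fn1, fibronectin, stood at 6411 and 5489 CPM against 25.04 and 8.65. Clec4e, the pattern receptor Mincle, stood at 138 and 136 CPM against 0.391 and 0.343, and its neighbour Clec4d at 218 and 268 against 3.52 and 4.80.

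The 12 with the lowest fold change were Ms4a7, Ehd3, Scimp, Aqp1, Clec4g, Gpihbp1, Plpp3, Gm4955, Ms4a6b, Gatm, Cadm1 and Lilra5. Ms4a7, a tetraspanning mac membrane protein, stood at 1.49 CPM (1 UMI) and 0 in Saa3-high cells against 82.0 and 55.7 CPM in reference cells. Scimp, an MHC class II-associated adaptor, stood at 5.94 and 11.1 CPM against 183 and 173. Ehd3, Clec4g, Gpihbp1, Aqp1 and Plpp3 are also genes of liver endothelium, and in the list of sinusoidal endothelium 8 of 9 genes fell. Clec4g stood at 4.46 and 11.1 CPM against 102 and 239. With the clusters of other cell types left out of both classes, 4 of the sinusoidal endothelial genes fell and 1 rose. Summed over the list, these genes stood at 498 and 858 CPM in reference cells and at 35.7 and 85.7 in Saa3-high cells, and the part of endothelial RNA in the other lower genes was not tested.

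Saa3 was the only serum amyloid A gene found. Saa1, Saa2 and Saa4 had 0 UMIs in all 77 Saa3-high cells, which allows up to 4.46 CPM in WT and 8.30 CPM in Zeb2KO by the limit of 3 counts, and 5.48 and 10.2 CPM by the Poisson interval. Of 12 acute-phase and antimicrobial genes tested, 9 rose and none fell (6 and 0 by DESeq2). Slpi, the secretory leukocyte protease inhibitor, stood at 7420 and 2975 CPM against 12.6 and 6.63 (log2 9.23 ± 0.30), and was spread unevenly, from 0 to 700 UMIs per WT member with a median of 21.5 and from 0 to 296 with a median of 5 in Zeb2KO. Hp, haptoglobin, stood at 114 and 88.5 CPM against 2.56 and 1.41. Lyz1 stood at 1175 and 1875 CPM against 17.7 and 12.4; Lyz1 and Lyz2 are close paralogs whose counts may not be fully separable. Lbp, which presents lipopolysaccharide, and Cfb, complement factor B, also rose. Pglyrp1, a peptidoglycan recognition protein, rose in the fit although it stood at 63.9 CPM against 1.60 in WT and 58.1 against 104 in Zeb2KO.

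Of 8 receptors reported to bind serum amyloid A, 4 fell, 1 rose and 3 did not pass the test. The formyl peptide receptor genes Fpr1 and Fpr2 fell, Fpr2 from 92.4 and 85.3 CPM to 13.4 and 5.53. Scarb1 and Tlr4 fell as well. Cd36, a scavenger receptor, rose from 56.0 and 116 CPM to 211 and 235. Tlr2, P2rx7 and Ager did not pass the test.

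Of 10 genes of the response to interleukin-6, STAT3 and C/EBP factors, 4 rose (Socs3, Cebpb, Junb and Pim1) and 1 fell (Il4ra), and by DESeq2 3 rose and none fell. Socs3, the feedback inhibitor of STAT3 signalling, stood at 318 and 362 CPM against 4.47 and 13.1 (log2 5.67 ± 0.23). Cebpb stood at 147 and 119 CPM against 86.7 and 51.1, whereas Stat3 itself stood at 43.1 and 36.0 against 57.1 and 53.5 and did not pass. Of 23 NF-κB and toll-like receptor response genes, 9 rose and 9 fell (6 and 5 by DESeq2), where 8.33% and 10.7% of all genes did in the edgeR fit. The risers included Cxcl2, a neutrophil-attracting chemokine, at 724 and 517 CPM against 11.5 and 14.4, Cxcl1, Cd14, Clec4e and Clec4d. The genes that fell included the cytokines Il1b (17.8 and 74.7 CPM against 170 and 290), Il1a and Tnf, and Il1rn, Icam1 and Tnfaip2. Il6 was at 25.3 and 8.30 CPM against 7.98 and 5.22, with few UMIs behind it.

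Among 18 chemokines tested, 7 rose and 8 fell (5 and 5 by DESeq2), where 8.33% and 10.7% of all genes did in the edgeR fit. Pf4 stood at 5069 and 5799 CPM against 218 and 320, Ccl9 at 748 and 550 against 15.9 and 20.4, and Ccl6 at 1501 and 1526 against 780 and 445. Pf4 is also a platelet gene, but of the platelet list a single gene could be tested, and the list summed to 1.49 and 8.30 CPM in Saa3-high cells against 1.26 and 2.32 in reference cells, so the part of platelet RNA was not tested. Cxcl13, the B cell-attracting chemokine of body cavities, stood at 322 and 799 CPM against 293 and 32.8, so that its rise lay mostly in Zeb2KO. Ccl3 rose in the fit but was higher only in WT (160 against 31.5 CPM) and stood at 99.5 against 185 in Zeb2KO. Ccl5, Cxcl9, Cxcl10 and Cxcl16 fell.

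The interferon response and MHC class II genes were lower in Saa3-high cells. Of 16 interferon response genes 13 fell and none rose, including Isg15 (34.2 and 30.4 CPM against 166 and 254), Irf7 and Cxcl9. Ifitm3, at 2667 and 2353 CPM against 3438 and 1982, did not pass. All 7 MHC class II genes tested fell. Cd74 fell from 7928 and 9074 CPM to 725 and 561, and H2-Aa from 3389 and 3977 to 361 and 271. These counts include the 7 Clec4f-rich members, which held most of the Cd74 UMIs.

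Genes of iron and haem handling, a main task of KCs, were lower. Of 12 tested, 8 fell, among them Slc40a1, the iron exporter ferroportin, from 2173 and 1979 CPM to 125 and 312, and Hmox1, haem oxygenase, from 1087 and 742 to 119 and 218. Trf, transferrin, was the gene that rose, from 894 and 898 CPM to 2910 and 2810. Trf stood also in the hepatocyte list, where it was the only gene that rose and 4 of 10 fell (1 by DESeq2), Fabp1 and Apoa2 among them. Of 13 LXR target and apolipoprotein genes, 6 fell and Apoc4 rose. Apoe was abundant in both classes, at 29580 and 30940 CPM against 26220 and 25120, and did not pass. The erythroid globins, at 57.7 CPM for Hba-a1 in WT reference cells, were at 0 or 1 UMI in the Saa3-high cells. The erythroid list summed to 226 CPM in WT but 5.56 CPM in Zeb2KO reference cells. In WT, Hbb-bs was found in 55 of 3958 reference cells, with up to 2090 UMIs in a cell.

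Complement genes moved in both directions. Of 13 tested, 5 rose and 3 fell, where 8.33% and 10.7% of all genes did. C4b stood at 1134 and 763 CPM against 202 and 34.6, and C5ar1, the C5a receptor, rose too. C6, C2 and Vsig4 fell. Scavenger and efferocytosis receptors divided likewise, with 4 of 11 higher (Msr1, Cd36, Timd4, Colec12) and 5 lower (Mrc1, Axl, Mertk, Scarb1, Cd209f). Mrc1, the mannose receptor, fell from 490 and 328 CPM to 62.4 and 74.7.

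S100 and annexin genes rose in 8 of 11 cases. S100a4 stood at 244 and 257 CPM against 4.25 and 7.96, S100a6 at 272 and 343 against 8.16 and 17.9, and Anxa1, a pro-resolving mediator, at 178 and 199 against 2.26 and 3.73. S100a4, S100a6, Fn1 and F13a1 belong to the monocyte list, in which 5 of 9 genes rose. The other 4 fell, Itgal among them: Ccr2 stood at 1.49 and 2.77 CPM against 8.07 and 59.4, Cx3cr1 at 0 and 5.53 against 7.16 and 70.8, and Plac8 fell from 598 and 414 to 35.7 and 30.4. In the capsular and Cd11c-type liver mac list 8 of 10 genes fell, and F10 and Cd9 rose, F10 (coagulation factor X) to 297 and 321 CPM from 1.17 and 0.838. In the lipid-associated mac list 3 of 7 rose (Cd9, Fabp5 and Cd63), Lgals3 fell, and Trem2, Lpl and Spp1 did not pass. By DESeq2 3 rose and 0 fell.

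Immediate early and heat shock genes rose in 8 of 12 cases, including Fos (559 and 940 CPM against 170 and 373), Egr1, Ier2 and Dusp1, and Hspa1b fell. By DESeq2 7 rose and 0 fell, and with reference cells in the depth range of the Saa3-high cells 9 and 0. These genes respond to cell handling, whose part was not tested. In the oxidative burst and stress list 4 of 15 rose, Cybb, Mt1 and Prdx6 among them, and 4 fell, where 8.33% and 10.7% of all genes did. Proliferation genes rose in 3 of 8 cases, in 1 under 6 alternatives, DESeq2 and totals without TMM factors among them, and in 6 over the whole cluster, of which Tubb5 is also a general tubulin gene, while Mki67 stood at 10.4 and 11.1 CPM against 10.5 and 30.7.

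Markers of other cell types were then counted in the Saa3-high cells. Of the neutrophil list 8 of 10 genes in WT and 7 of 10 in Zeb2KO had no UMI. Csf3r was the single gene that rose, and the list summed to 69.8 and 91.3 CPM against 30.9 and 52.4 in reference cells. Of the T and NK cell list all 8 genes were at 0 in both libraries. The B cell list summed to 25.3 and 8.30 CPM and 3 of its 6 tested genes fell (1 by DESeq2). The dendritic cell list summed to 47.6 and 44.3 CPM, with Clec10a up and Clec9a down among 7 tested (0 and 0 by DESeq2). For mesothelium, the lining of the cavity and organ surfaces, 4 of 5 genes in WT and 5 of 5 in Zeb2KO were at 0. In the stellate cell and fibroblast list 6 of 8 were at 0, and Ecm1 rose to 1006 and 946 CPM from 64.2 and 17.7.

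**Figure D5:**
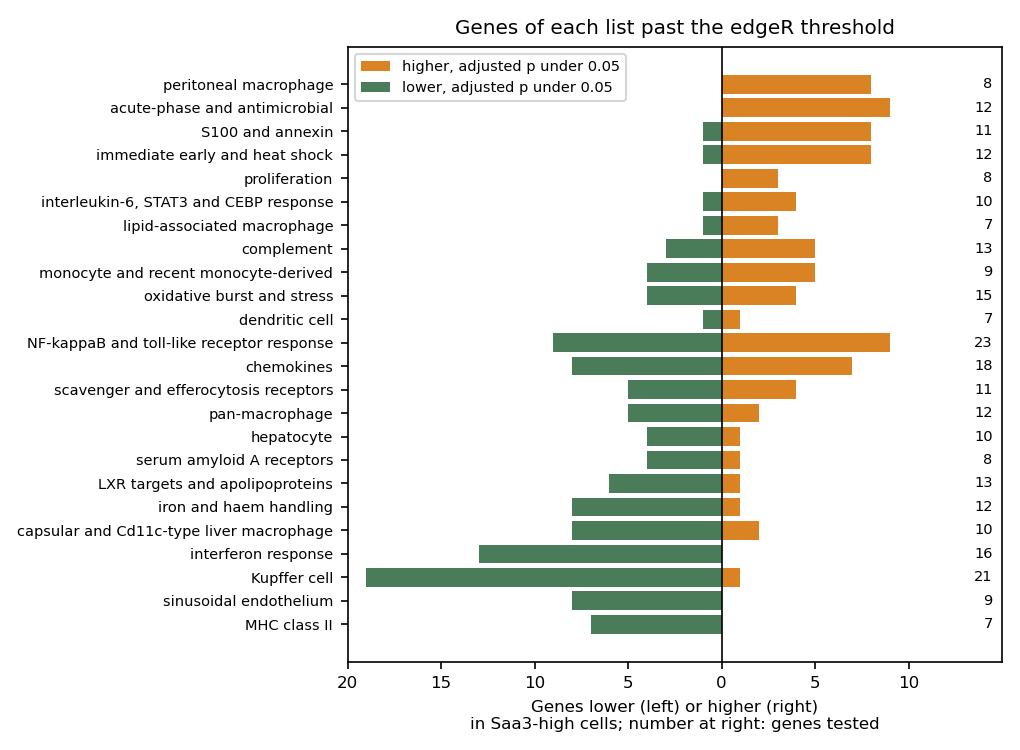
Number of genes per list that passed edgeR's threshold as higher (right) or lower (left) in Saa3-high than in reference cells, for lists with at least 7 genes tested. The peritoneal mac list has 8 higher and 0 lower, and the KC list 1 higher and 19 lower.

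The Saa3-high cells of the 2 genotypes were then set side by side. With 1 library each there was no test, and differences are described by size. At 100 CPM or more, 11 of 1259 genes were at least 2-fold higher in Zeb2KO than in WT Saa3-high cells (0.874%) and 7 lower (0.556%), where among the deeper sums of reference cells the shares were 3.22% and 1.14% of 1491. The lower genes were Cxcl1, Slpi, Tpr, Cd24a, Rps27rt, Stmn1 and Rtp4, and the higher ones Lpl, Tubb4b, Cxcl13, Slc40a1, Cd63, Hspa1a, Id3, Rgs1, Lgals1, Ly6a and Ube2c. The 4 Clec4f-rich Zeb2KO members held 83 of the 113 Slc40a1 UMIs and 51 of the 101 Id3 UMIs, and the 3 WT ones 48 of 84 and 29 of 59. Without these 7 cells Slc40a1 stood at 58.6 CPM in WT and 100.3 in Zeb2KO Saa3-high cells, less than 2-fold apart, and Id3 at 48.8 and 167. Rps27rt is a copy of a ribosomal protein gene, so its counts may include reads of that gene.

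Genes that separated Zeb2KO from WT reference cells were compared with the same genes in Saa3-high cells. Of 6 genes taken from an earlier analysis of these data, and so no independent evidence, 6 were lower in Saa3-high than in reference cells in the edgeR fit and 1 by DESeq2, and in WT none of them was 2-fold lower at the floor of 20 CPM, which 1 of them reached. Siglecf, a sialic acid-binding receptor and a member of that list, stood at 1.65 CPM in WT and 156 CPM in Zeb2KO reference cells, and at 1.49 (1 UMI) and 13.8 CPM (5 UMIs) in Saa3-high cells. Ms4a1, which encodes CD20, stood at 11.98 and 108 CPM in reference cells and at 0 and 2.77 in Saa3-high cells. Plp2, at 1.52 and 77.2 CPM in reference cells, stood at 2.97 and 5.53. At these totals 3 UMIs correspond to 4.46 and 8.30 CPM, so that no firm fold can be given. The Zeb2 transcript stood at 282 and 340 CPM in WT and Zeb2KO Saa3-high cells, a log2 difference of 0.27, and at 385 and 765 CPM in reference cells, a log2 difference of 0.99. Timd4 differed by a log2 of 0.06 between the Saa3-high cells and fell by 2.19 on the log2 scale between the reference cells. Whether these contrasts differ between the classes was not tested.

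Saa3 was also high in colon macs, where 21 WT and 179 Zeb2KO cells passed the same threshold and filter. Saa3 stood at 5870 and 11990 CPM in these colon cells, and 18 other genes were looked up. Adgre1 stood at 738 and 595 CPM, near the 761 and 805 of the liver cells, and Lyz2 at 26860 and 17680. Gata6, Prg4, Alox15 and Selp had 0 UMIs in them, and Clec4f had 0 UMIs. They carried MHC class II, with Cd74 at 16430 and 13100 CPM, against 725 and 561 CPM in liver Saa3-high cells. So did colon cells without Saa3, with Cd74 at 23170 and 13880 CPM. Slpi stood at 48.1 and 96.1 CPM in colon Saa3-high cells, against 5.14 and 13.6 in colon cells without Saa3. For Fn1 the levels were 19.3 and 18.6, against 49.3 and 58.0. Both genes stood much higher in the liver Saa3-high cells. Saa1, with 0 UMIs in the liver Saa3-high cells, stood at 6.42 CPM (2 UMIs) and 27.2 CPM (60 UMIs) in the colon ones. Colon cells without Saa3 held it at 4.87 and 1.02 CPM. Retnla, a product of alternatively activated macs, stood at 532 and 1004 CPM in liver Saa3-high cells, but was detected in 13 of 50 and 8 of 27 of them, with up to 129 and 231 UMIs in a cell. Arg1, of the same programme, was found in 12 of 50 and 12 of 27.

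As a description, the log-scale profile of WT Saa3-high cells over 7944 genes had a Pearson r of 0.93 with Zeb2KO Saa3-high cells, 0.81 with the other cells of its own library, 0.77 with Nr1h3fl/fl KCs, 0.76 with WT colon macs, 0.63 with WT alveolar macs, 0.62 with WT splenic macs and 0.59 with WT microglia. Genes are not replicates, and cells of a library may share free RNA.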

How the data were processed

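Single cells of 11 libraries had been profiled by the 10x Genomics 3′ assay. The deposited tables hold raw UMI counts per gene and cell (27998 genes), which the authors made with Cell Ranger on mm10 and did not normalise. All other steps were computed here. Cells beyond 3 median absolute deviations in total UMIs, detected genes or mitochondrial share were left out. Doublets were scored (Scrublet in scanpy 1.11.5) but not removed. Cells of the 3 liver libraries were clustered without Saa3 and Clec4f (2000 variable genes, 30 principal components, Leiden at resolution 0.8). UMIs were summed per library and class, and 2 library pairs were fitted with edgeR 4.0.16 (quasi-likelihood test, TMM factors, library as block, Benjamini-Hochberg over all genes fitted, adjusted p threshold 0.05), with the standard error taken as the log2 fold change over the root of its F value. The Nr1h3fl/fl library, with 0 Saa3-high cells, was left out of the fit. Within a library, log2 ratios of CPM + 1 and a rule of size (2-fold, at least 20 CPM in the higher class) describe differences. Named genes were the 12 highest and 12 lowest past the threshold at 50 CPM or more in the higher class of both libraries, and fixed lists. The members and lists were chosen with earlier results of these data known. DESeq2 1.42.0 was an alternative. Scripts were tested on simulated data. Ighm, Igkc, Trbc2, Cebpd and Clec7a were not analysed here, and some listed genes are not reported here. Intervals cover counting error only. The p-values rest on 2 library pairs and on a spread estimated largely across genes, and do not cover the spread between animals.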

Additional observations from a re-analysis of the deposited data

Results flagged for a closer look

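In 4 of 198 listed genes that reached 20 CPM in both libraries, Saa3-high cells were higher than reference cells in one genotype and lower in the other, by a log2 ratio of at least 0.5 each way. Stmn1, which encodes a microtubule regulator of dividing cells, had log2 ratios of 1.16 in WT and -1.50 in Zeb2KO. For Pglyrp1 they were 4.64 and -0.82, for Ccl3 2.31 and -0.89, and for Marco 0.68 and -0.53. In all 4 genes the reference cells were higher in the Zeb2KO than in the WT library, while the Saa3-high cells were lower. With 1 library per genotype the difference between the genotypes was not tested.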

How the results depend on the processing

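Saa3-high cells against reference cells gave 2217 genes past the threshold in the edgeR fit and between 2041 and 2530 under 12 edgeR alternatives. DESeq2 called 1152, of which 1147 were among the 2217 in the same direction, with 483 lower. The share of Saa3-high cells in WT was 0.855% at a threshold of 40 Saa3 UMIs. The counts of 2-fold genes followed the floor: at 5 CPM 797 higher and 1960 lower in WT and 875 and 2380 in Zeb2KO, and at 50 CPM 311 and 583 in WT and 265 and 627 in Zeb2KO. The median log2 ratio of the KC list stayed below 0 in every setting. Among Saa3-high cells with under 10 Clec4f UMIs, a setting chosen after seeing the data, it was -4.15 in WT and -3.75 in Zeb2KO. In Zeb2KO it was also -2.02 with a pseudocount of 10, -3.27 at 40 Saa3 UMIs, -2.14 without the clusters of other cell types, and -2.01 over the whole cluster, the last likewise added later. The cause was not tested. Cd79a (1.57) and Ebf1 (1.89), B cell genes with few UMIs, changed sign without the clusters of other cell types and did not pass the threshold there, a setting that removes B cells from the reference. Of 2625 alternative values for 202 named genes that passed, 2499 kept their side, 124 in 53 genes missed the threshold (47 under DESeq2) and 2 reversed. The 8 peritoneal mac genes rose in every edgeR and DESeq2 setting. Leaving out either library leaves a single pair and no residual degree of freedom, hence no test. The reported fit pairs the 2 classes within each library, and with 1 library per genotype there are no replicate numbers that could pair the genotypes. Depth limits the Zeb2KO sum, in which 3 UMIs are 8.30 CPM.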
